A study of Mus musculus with 6 samples.

Results

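Coagulation and complement factors are plasma proteins, most of them made by hepatocytes, and 44 of their genes were read here in mouse hepatocytes that expressed the transcription factor Sox4. They were taken from a list of gene symbols covering clotting factors, fibrinogen, fibrinolysis and complement (serpins left out). All 44 of the listed symbols were among the 53599 genes of the count table, and all 44 were among the 12691 genes with enough counts to be tested.

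The study asked how Sox4 alone changes the transcriptome of the adult hepatocyte. RNA-Seq was performed on 6 libraries of liver cells labelled as hepatocytes, 3 from mice given AAV8-TBG-HA-Sox4-P2A-Cre (Sox4) and 3 from mice given AAV8-TBG-Cre, the empty vector (EV). Both vectors carry the hepatocyte promoter TBG and both deliver Cre, so the control group also underwent Cre expression. The mice were Rosa-LSL-Cas9-EGFP animals, in which Cre switches on Cas9 and EGFP. They were 4 to 8 weeks old at injection per the study's methods, and male per its reporting summary. The genotype field gave WT for EV and Sox4 for the Sox4 group. Cells were taken 4 days after injection and enriched on Percoll, and the labels name no sort for EGFP, so other liver cells could be carried along. The study's text gives 3 animals per group, while the labels do not say which animal a library came from.

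Coagulation is a cascade of zymogens that are cleaved in turn until thrombin converts fibrinogen to fibrin, and plasmin later dissolves the clot. Complement is a related cascade in which the classical, lectin and alternative routes meet at C3 and end in a pore built from C5 to C9. The adult liver supplies most of these proteins to plasma, which makes them common markers of hepatocyte function.

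Total counts ran from 15090629 to 16964860 per library. Sox4 itself had 2, 0 and 3 counts in EV libraries 1 to 3 and 21697, 15097 and 11816 in Sox4 libraries 1 to 3, at least 3631-fold higher (against a floor of 3 counts per EV library). Levels below are CPM, counts scaled to a common library size, on library sizes adjusted by TMM, a method that assumes that most genes do not change. Each change is a log2 fold change of Sox4 over EV, with the standard error (SE) of the difference between 3 and 3 libraries. Adjusted p-values come from the edgeR quasi-likelihood test over all 12691 genes, and a gene was called at 0.05. The scaling matters: TMM put the Sox4 library sizes 1.48-fold above EV while total counts differed 1.07-fold. Under TMM 6990 of the 12691 genes were called, so its assumption may not hold here. With library size alone the median of all genes moved from 0.04 to 0.51 on the log2 scale, a shift of 0.47. A fall of less than this therefore had no direction independent of the scaling.

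Most of the 44 genes had lower mRNA levels in Sox4 hepatocytes. Of the 44, 34 were lower and 3 were higher (F8, Cd55 and Cd59a), and 7 did not pass the threshold (F12, Kng2, F3, Pros1, Vtn, Cfb and Cfp). Among all genes tested, 26.0% were called lower and 29.0% higher. The drop was at least 2-fold in 22 members, against 11.9% of all genes, and the rise at least 2-fold in 1 (Cd55), against 16.5% of all genes. In 34 members every Sox4 library lay below every EV library, which held for 29.9% of all genes, and in 3 members every Sox4 library lay above (F3, Cd55 and Cd59a; 33.1% of all genes). The median log2 fold change of the 44 was -1.04, beside 0.04 for all genes tested. With library size alone, 25 members were lower (12.8% of all genes) and 7 higher (51.0% of all genes), with a median of -0.56. Relative to the median of all genes the members' median was -1.08 under TMM and -1.07 under library size alone. These shares of all genes under each scaling are also the ones to read beside the group counts below. In bulk samples, fewer cells that make a transcript and less of that transcript per cell cannot be told apart.

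**Figure D1:**
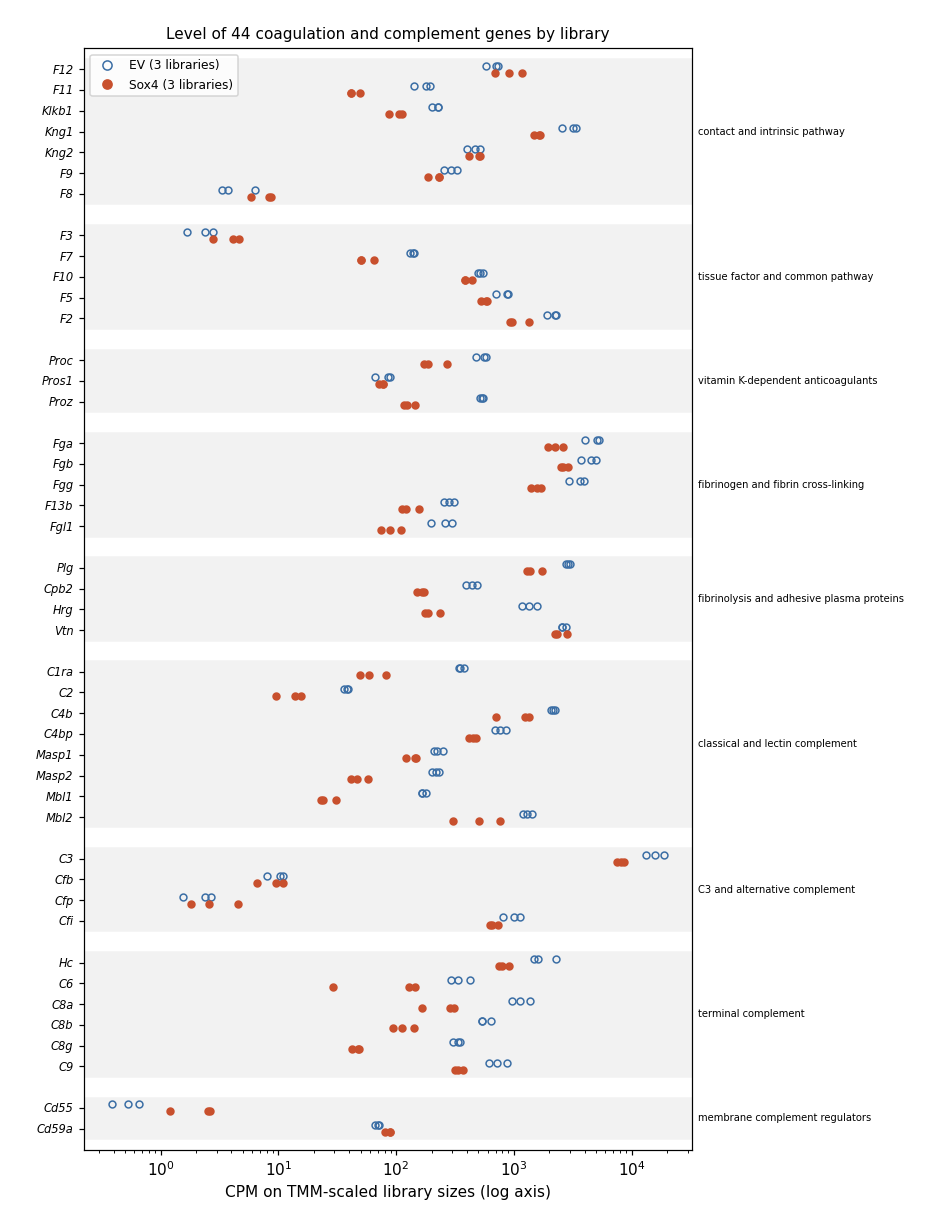
Level of each of the 44 genes in CPM on TMM-scaled library sizes (log axis), with 1 point per library, EV as open blue and Sox4 as filled red circles, grouped by role. In the terminal complement group all 6 genes separate with Sox4 below EV, while Vtn, Kng2, Pros1 and Cfb overlap.

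The summed counts of the 44 genes took 4.35%, 4.91% and 5.37% of EV libraries 1 to 3, and 3.85%, 3.41% and 3.23% of Sox4 libraries 1 to 3. The means were 4.88% ± 0.510 (SD, n = 3) and 3.496% ± 0.319 (SD, n = 3), so the share was 1.38 percentage points lower in Sox4. Groups did not overlap, and the exact two-sided permutation test gave p = 0.1, the smallest that 3 against 3 libraries allow. C3 alone held 26.0% to 29.9% of the members' counts in EV and 26.2% to 27.8% in Sox4, so its share of them overlapped between groups. Terminal complement genes went from 7.71% to 9.26% of the members' counts in EV down to 5.07% to 6.43% in Sox4. The share of Vtn went the other way within the same total, from 4.07% to 5.08% in EV up to 8.08% to 8.56% in Sox4. These shares within a library do not depend on how libraries were scaled. The level of Vtn itself was not called under either scaling (log2 fold change -0.10 with TMM and 0.37 with library size alone).

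**Figure D2:**
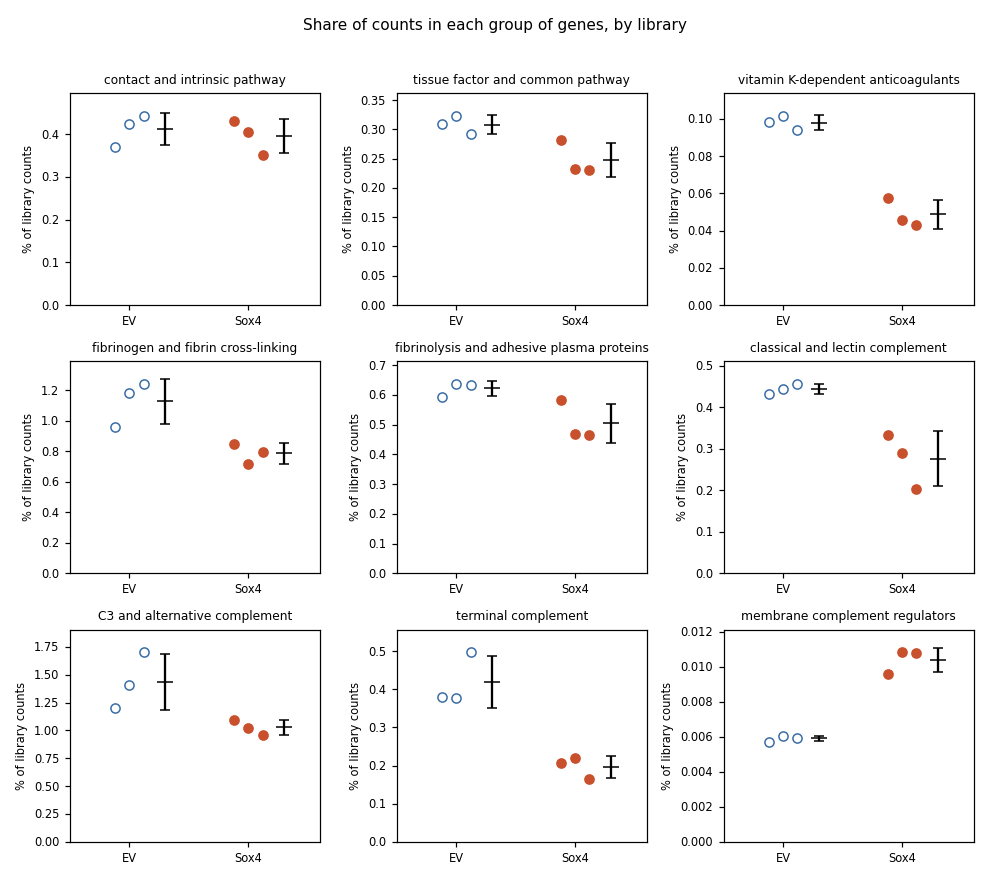
Percent of each library's counts held by the genes of each functional group, 1 circle per library and, beside them, the mean with its SD (n = 3). All groups but the contact and intrinsic pathway separate, with Sox4 lower in 7 and higher in the membrane complement regulators.

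Per kilobase of exon, the EV order was led by C3 with 3104 CPM per kb, followed by Fgg with 1690 CPM per kb, Fga with 1599 CPM per kb and Vtn with 1304 CPM per kb. In Sox4 the leading level was again that of C3, with 1566 CPM per kb, and Vtn was now next with 1214 CPM per kb. Hrg moved from rank 9 of 44 to rank 17 on this per-length scale, and C8a from rank 14 to 22. Kng2 moved up from rank 22 to 13, and F12 from rank 13 to 8. At the other end were F3, F8 and Cd55, each under 2 CPM per kb in both groups. Lengths were taken from GENCODE M21 gene models.

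The contact and intrinsic pathway begins on negatively charged surfaces and ends in the factor IX and VIII complex that activates factor X. Of its 7 genes, 4 were lower (F11, Klkb1, Kng1 and F9), 1 was higher (F8) and 2 did not pass (F12 and Kng2), with a median log2 fold change of -0.44. Scaled by library size alone, 3 were lower and 3 higher with a median of 0.03, so the direction of the group's median rests on the scaling. F11, the zymogen of factor XI, was at 141, 179.7 and 192 CPM in EV libraries 1 to 3 and 49.9, 41.5 and 41.3 CPM in Sox4. All Sox4 libraries thus lay below all EV libraries, a log2 fold change of -1.95 with an SE of 0.16 (adjusted p = 5.96e-06). Klkb1, plasma prekallikrein, was at 203, 227 and 228 CPM in EV libraries 1 to 3 and 111, 86.5 and 106 CPM in Sox4, also without overlap (-1.12 ± 0.12 SE, adjusted p = 8.27e-05). Of the Klkb1 exon sequence, 42.7% is shared in GENCODE M21 with Gm45753, a gene model on the same strand, so its counts hold only part of the gene if shared reads were discarded. Kng1, a kininogen that carries prekallikrein and factor XI and releases bradykinin, was the most abundant of the group, at 2558, 3157 and 3379.9 CPM in EV libraries 1 to 3 and 1629, 1667 and 1493 CPM in Sox4. It was 1.90-fold lower in Sox4 (-0.92 ± 0.13 SE, adjusted p = 0.000848). Its paralog Kng2 lies next to it in RefSeq GRCm38.p6 and showed 402, 472 and 518 CPM in EV against 511, 512 and 419 CPM in Sox4, with overlap. The Kng2 log2 fold change was 0.05 ± 0.14 SE (adjusted p = 0.793), but 0.52 with library size alone (adjusted p = 0.0111). Since 17.2% of Kng1 and 19.4% of Kng2 exon sequence is shared between them, part of their reads could have been split.

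F12, the zymogen that starts the contact pathway, was at 741, 711 and 583 CPM in EV libraries 1 to 3 and 1171, 906 and 698 CPM in Sox4. Sox4 library 3 fell within the EV range, and the log2 fold change of 0.45 with an SE of 0.24 (adjusted p = 0.0794) did not pass. The call appeared with library size alone (0.92, adjusted p = 0.00280), with DESeq2 (adjusted p = 0.0463), with no filter (adjusted p = 0.00720), with the replicate block (adjusted p = 0.0362) and without Sox4 library 3 (adjusted p = 0.0124). F11 counts were 0.191, 0.253 and 0.330 of F12 counts in EV and 0.0426, 0.0458 and 0.0591 in Sox4. F9, the vitamin K-dependent protease of the complex, had a log2 fold change of -0.44 with an SE of 0.15 (adjusted p = 0.0259), but 0.03 with library size alone, so its direction rests on the scaling. Its call was lost without EV library 2, EV library 3 or Sox4 library 1 (adjusted p = 0.0725, 0.0884 and 0.0524), and with limma on the deposited normalized values (adjusted p = 0.0546).

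F8, the cofactor of factor IXa, was the only gene of the cascade called higher. Its level was 3.78, 3.34 and 6.39 CPM in EV libraries 1 to 3 and 5.91, 8.33 and 8.67 CPM in Sox4, with EV library 3 above Sox4 library 1 (0.76 ± 0.33 SE, adjusted p = 0.0439). Without EV library 1, EV library 2, Sox4 library 2 or Sox4 library 3 the adjusted p was 0.131, 0.160, 0.119 and 0.115, and with limma on the deposited normalized values it was 0.0625. Factor VIII is known to come mainly from endothelial cells, and of 9 liver endothelial markers, all tested, 3 were higher (Stab1, Clec4g and Kdr), 1 was lower (Stab2, not with library size alone) and 5 did not pass. Their summed level ran from 23.8 to 36.2 CPM in EV against 24.3 to 50.6 CPM in Sox4, with overlap. The part of endothelial transcripts in the F8 result was not tested.

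In the tissue factor and common pathway, tissue factor and factor VIIa activate factor X, which with factor V turns prothrombin into thrombin. Of these 5 genes, 4 were lower (F7, F10, F5 and F2) and F3 did not pass, with a median of -0.55. Scaled by library size alone, 2 were lower and 1 higher, with a median of -0.07. F7, the plasma partner of tissue factor, was at 131, 141 and 139 CPM in EV libraries 1 to 3 and 64.9, 50.01 and 50.1 CPM in Sox4. Even the highest Sox4 library had less than the lowest EV library, and the log2 fold change was -1.32 with an SE of 0.13 (adjusted p = 2.60e-05). F2, prothrombin, was the most abundant of the 5, at 2241, 2293 and 1908 CPM in EV libraries 1 to 3 and 1357, 967 and 930.4 CPM in Sox4, again with no overlap. Its log2 fold change was -0.98 with an SE of 0.19 (adjusted p = 0.00133). F5, the cofactor of factor Xa, had a log2 fold change of -0.55 with an SE of 0.12 (adjusted p = 0.00948), and with library size alone its value was -0.07 (adjusted p = 0.658). F10, the protease of the prothrombinase complex, had a log2 fold change of -0.36 with an SE of 0.07 (adjusted p = 0.0330). Its direction turned with library size alone (0.11, adjusted p = 0.464), and the call was lost without any one of the EV libraries or Sox4 libraries 2 and 3 (adjusted p from 0.0502 to 0.112), and with no filter (adjusted p = 0.101). F7, F10 and Proz are direct neighbours in RefSeq GRCm38.p6. F7 counts were 0.255, 0.260 and 0.279 of F10 counts in EV and 0.148, 0.130 and 0.129 in Sox4. F3, tissue factor, the membrane receptor of factor VIIa, was at 2.77, 1.67 and 2.40 CPM in EV libraries 1 to 3 and 2.81, 4.65 and 4.10 CPM in Sox4. These levels of a few CPM did not overlap, though 2.77 in EV and 2.81 in Sox4 nearly met, and the log2 fold change of 0.75 with an SE of 0.30 (adjusted p = 0.0634) did not pass. It passed with library size alone (1.22, adjusted p = 0.00692) and without Sox4 library 1 (adjusted p = 0.0286).

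The vitamin K-dependent anticoagulants act against the cascade. Proc (protein C, which inactivates factors V and VIII) and Proz (protein Z, the cofactor of a factor Xa inhibitor) were lower, while Pros1 (protein S, the cofactor of protein C) did not pass. Proc, the most abundant of the 3, was at 563, 576 and 481 CPM in EV libraries 1 to 3 and 271, 188 and 172 CPM in Sox4. Proz was at 513, 551 and 541 CPM in EV libraries 1 to 3 and 145, 124 and 117 CPM in Sox4. Both were clear of overlap, and the log2 fold changes were -1.36 with an SE of 0.22 (adjusted p = 0.000201) for Proc and -2.06 with an SE of 0.10 (adjusted p = 2.68e-06) for Proz. The log2 fold change of Pros1 was -0.09 with an SE of 0.14 (adjusted p = 0.577), and 0.38 with library size alone (adjusted p = 0.0246). Within each library, Proc had 8.54, 6.70 and 5.41 times the counts of Pros1 in EV and 3.78, 2.43 and 2.24 times in Sox4. Proz counts were 0.995, 1.02 and 1.08 of F10 counts in EV and 0.330, 0.322 and 0.3001 in Sox4.

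**Figure D3:**
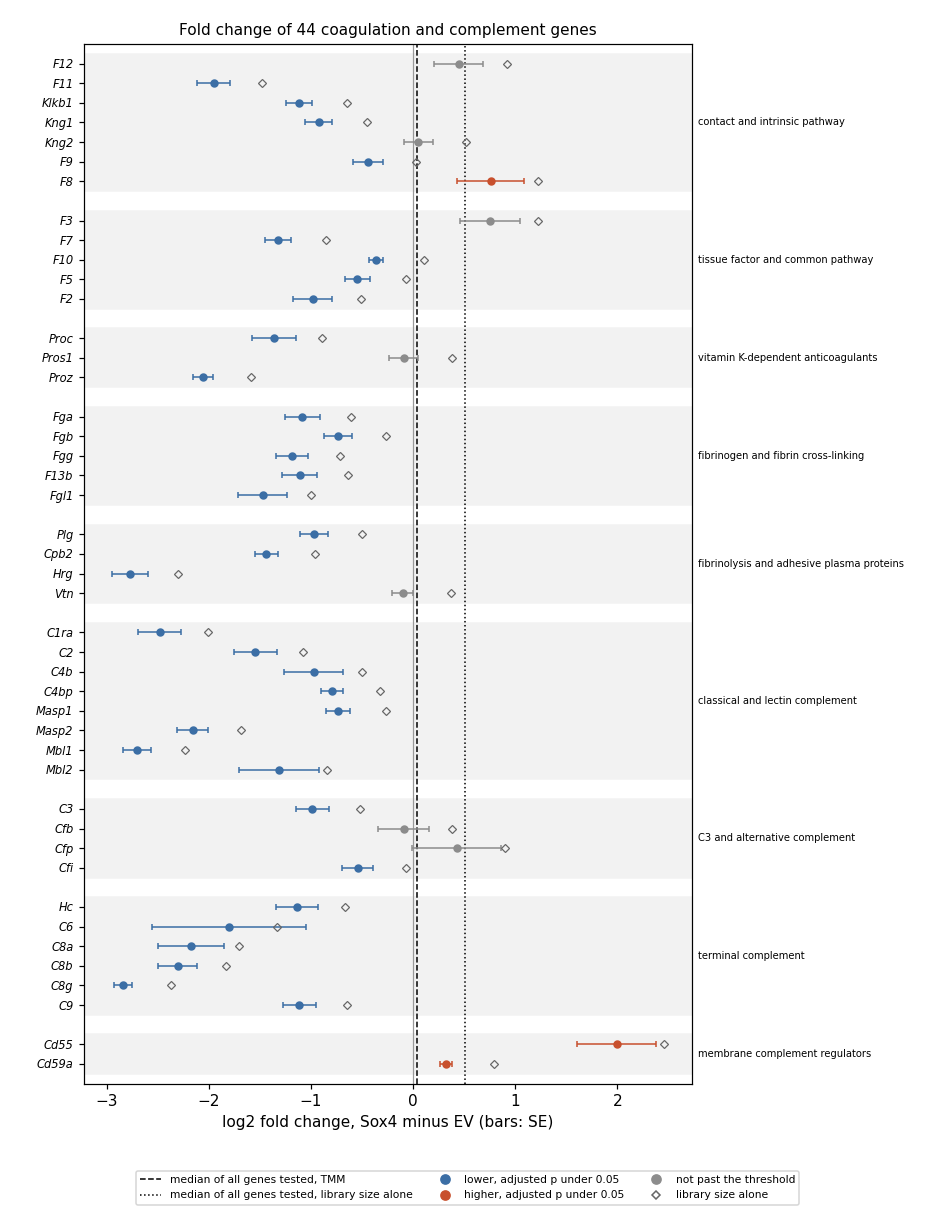
Log2 fold change of Sox4 minus EV with its SE for the 44 genes (filled circles, TMM; blue lower, red higher, grey not past the adjusted p threshold of 0.05), with the value for library size alone as an open diamond. The dashed and dotted lines give the median of all genes tested under each scaling, 0.04 and 0.51, and C8g at -2.84 and Cd55 at 1.99 are the ends of the range.

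Fibrinogen is a hexamer of paired alpha, beta and gamma chains, encoded by Fga, Fgb and Fgg, which lie side by side in RefSeq GRCm38.p6. All 5 genes of the fibrin group were lower (median -1.11), 4 of them at least 2-fold. Fga was at 4040.1, 5308 and 5087 CPM in EV libraries 1 to 3 and 2605, 1954 and 2249 CPM in Sox4. Fgb was at 3707, 4555 and 4994 CPM in EV libraries 1 to 3 and 2858, 2524 and 2598 CPM in Sox4. Fgg was at 2966, 3668 and 3974 CPM in EV libraries 1 to 3 and 1565, 1386 and 1718 CPM in Sox4. For each of the chains the groups did not overlap. The log2 fold change was -1.08 with an SE of 0.17 (adjusted p = 0.000650) for Fga, -0.73 with an SE of 0.14 (adjusted p = 0.00398) for Fgb and -1.18 with an SE of 0.15 (adjusted p = 0.000274) for Fgg. With library size alone the Fgb change of -0.26 was not called (adjusted p = 0.178). Fga counts were 1.09, 1.17 and 1.02 of Fgb counts in EV and 0.912, 0.774 and 0.866 in Sox4, and Fgg counts were 0.8001, 0.805 and 0.796 of Fgb counts in EV and 0.547, 0.549 and 0.661 in Sox4. These ratios do not depend on library scaling, and in both the Sox4 libraries lay below all EV libraries. The exact permutation test gave p = 0.1 for each of these ratios, the smallest that 3 against 3 libraries allow. Pairs for such ratios were chosen after their values were seen, so this p-value is not used as support. F13b, the carrier subunit of the fibrin cross-linking factor XIII, was at 254, 283 and 312 CPM in EV libraries 1 to 3 and 112, 122 and 158 CPM in Sox4 (-1.11 ± 0.17 SE, adjusted p = 0.000243). Fgl1, a fibrinogen-like protein secreted by the liver, was at 198, 263 and 299 CPM in EV libraries 1 to 3 and 89.4, 109.8 and 74.5 CPM in Sox4 (-1.47 ± 0.24 SE, adjusted p = 0.000155). Both fell in all Sox4 libraries below all EV libraries.

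The 250 bases before the start of the fibrinogen genes are printed because the genes are neighbours that were all lower. Sequences of 35 of the 44 members were found in the RefSeq table (GRCm38.p6). Capitals mark GTTAAT or its reverse complement ATTAAC, a core of the site of the liver factor HNF1, and ACAAAG or its reverse complement CTTTGT, a core of the SOX site. Fga is at chr3:83025903-83026152 on the plus strand, Fgb at chr3:83049864-83050113 on the minus strand and Fgg at chr3:83007474-83007723 on the plus strand.
Fga: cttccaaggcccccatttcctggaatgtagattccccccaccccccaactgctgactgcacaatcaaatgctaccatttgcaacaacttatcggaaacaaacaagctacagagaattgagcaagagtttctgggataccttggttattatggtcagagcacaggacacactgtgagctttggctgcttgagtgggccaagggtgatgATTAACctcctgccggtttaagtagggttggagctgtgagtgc
Fgb: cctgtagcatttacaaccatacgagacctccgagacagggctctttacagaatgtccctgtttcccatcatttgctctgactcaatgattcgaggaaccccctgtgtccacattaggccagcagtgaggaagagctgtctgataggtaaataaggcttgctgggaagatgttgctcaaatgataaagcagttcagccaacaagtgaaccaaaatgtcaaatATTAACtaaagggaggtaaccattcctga
Fgg: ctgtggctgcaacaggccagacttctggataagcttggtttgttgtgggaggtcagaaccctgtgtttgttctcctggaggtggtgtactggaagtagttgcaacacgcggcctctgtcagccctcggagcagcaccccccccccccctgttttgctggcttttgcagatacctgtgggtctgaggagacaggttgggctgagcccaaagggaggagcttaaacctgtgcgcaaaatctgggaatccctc
Fga held ATTAAC with its first match 43 bases before the start and Fgb 29 bases before it, and Fgg held neither core in this window.

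Among fibrinolysis and adhesive plasma proteins, 3 of 4 genes were lower (median -1.20). Plg, plasminogen, the precursor of plasmin, had a log2 fold change of -0.97 with an SE of 0.14 (adjusted p = 0.000703), and 10.2% of its exon sequence is shared with Slc22a3 on the opposite strand. Slc22a3 was at 2.40 to 3.87 CPM in all libraries, against 1288 CPM or more for Plg. Cpb2, the carboxypeptidase that protects fibrin from plasmin, was at 394, 439 and 489 CPM in EV libraries 1 to 3 and 165, 173 and 150.2 CPM in Sox4. All its Sox4 values lay below its EV values (-1.44 ± 0.11 SE, adjusted p = 1.99e-05). Hrg, histidine-rich glycoprotein, which binds plasminogen and heparin, was at 1183, 1344 and 1559 CPM in EV libraries 1 to 3 and 238, 185 and 175 CPM in Sox4. It was 6.83-fold lower, the steepest fall among the coagulation and fibrinolysis genes (-2.77 ± 0.18 SE, adjusted p = 2.68e-06). Vtn, vitronectin, which stabilises the plasminogen activator inhibitor PAI-1 and had the highest mean CPM of the group over all 6 libraries although Plg was above it in EV, was at 2570.3, 2791 and 2581 CPM in EV libraries 1 to 3 and 2802, 2348 and 2245 CPM in Sox4. Its groups overlapped (-0.10 ± 0.10 SE, adjusted p = 0.586), and with library size alone the value was 0.37 (adjusted p = 0.0537).

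Hrg and Kng2 are adjacent in RefSeq GRCm38.p6 and Hrg was called lower while Kng2 was not, and their upstream sequences are shown for that reason. Hrg had 2.95, 2.85 and 3.01 times the counts of Kng2 in EV and 0.467, 0.362 and 0.416 times in Sox4. Hrg is at chr16:22950822-22951071 on the plus strand and Kng2 at chr16:23029102-23029351 on the minus strand, with the same capitals as above.
Hrg: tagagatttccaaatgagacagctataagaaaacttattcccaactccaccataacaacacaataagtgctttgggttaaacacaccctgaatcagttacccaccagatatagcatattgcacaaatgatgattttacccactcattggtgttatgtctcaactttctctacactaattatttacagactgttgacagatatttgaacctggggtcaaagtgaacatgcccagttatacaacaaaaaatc
Kng2: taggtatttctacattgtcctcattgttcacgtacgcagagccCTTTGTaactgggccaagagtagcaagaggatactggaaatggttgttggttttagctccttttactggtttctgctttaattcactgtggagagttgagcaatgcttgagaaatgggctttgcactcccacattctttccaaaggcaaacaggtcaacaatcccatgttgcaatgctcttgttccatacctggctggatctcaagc
Kng2 held CTTTGT with its nearest match 207 bases before the start, and Hrg held neither core.

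**Figure D4:**
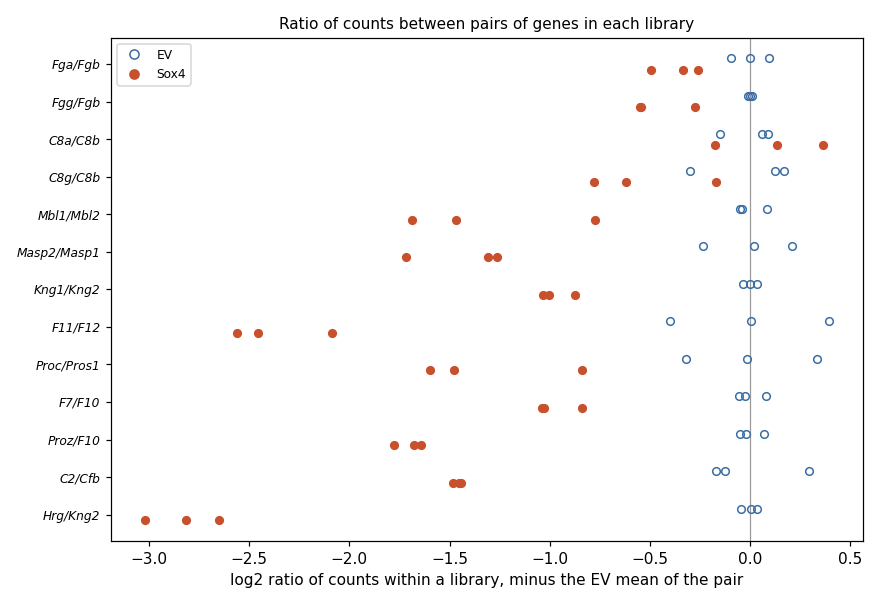
Log2 ratio of counts between pairs of the 44 genes in each library, minus the EV mean of the pair (EV open, Sox4 filled, 3 libraries each). Sox4 libraries lie left of all EV libraries in 11 of 13 pairs, and overlap them for C8a/C8b and C8g/C8b.

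The classical and lectin routes of complement start with C1 on antibody or with mannose-binding lectins on microbial sugars, and both cleave C4 and C2. All 8 of these genes were lower in Sox4, with a median of -1.43, and 5 of them at least 2-fold. With library size alone C4b, C4bp and Masp1 were not called (adjusted p = 0.0711, 0.0607 and 0.0922). C1ra, the protease of C1, was at 341, 375 and 349 CPM in EV libraries 1 to 3 and 81.8, 59.2 and 49.6 CPM in Sox4. Every Sox4 value was below every EV value (-2.48 ± 0.21 SE, adjusted p = 5.87e-06). Of its exon sequence 50.8% also occurs elsewhere, mainly in the paralog C1rb, which had at most 2 counts in any library. C4b, which encodes complement C4 and was the most abundant of the 8, was at 2168, 2216 and 2084 CPM in EV libraries 1 to 3 and 1343, 1237 and 711 CPM in Sox4. Sox4 library 3 was the lowest and the groups did not overlap (-0.97 ± 0.29 SE, adjusted p = 0.00456). The paralog C4a shares 34.6% of the C4b sequence and was at 0.811 to 27.1 CPM. C2, the protease that joins C4b in the convertase, was at 35.9, 39.3 and 38.6 CPM in EV libraries 1 to 3 and 13.8, 15.6 and 9.63 CPM in Sox4 (-1.55 ± 0.21 SE, adjusted p = 6.31e-05). C4bp, which restrains that convertase, had a log2 fold change of -0.80 with an SE of 0.11 (adjusted p = 0.000977).

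The lectin arm begins with the mannose-binding lectins. Mbl1, mannose-binding lectin A, was at 165, 165 and 179 CPM in EV libraries 1 to 3 and 30.8, 24.0 and 23.1 CPM in Sox4. Mbl2, mannose-binding lectin C, was at 1187, 1294 and 1417 CPM in EV libraries 1 to 3 and 759, 507 and 302 CPM in Sox4. Both lectins were lower in all Sox4 libraries, with log2 fold changes of -2.71 with an SE of 0.14 (adjusted p = 7.47e-07) for Mbl1 and -1.31 with an SE of 0.39 (adjusted p = 0.00483) for Mbl2, and the Sox4 values of Mbl2 spread widely. Mbl1 counts were 0.139, 0.127 and 0.127 of Mbl2 counts in EV and 0.0406, 0.0473 and 0.0766 in Sox4. Masp2, the lectin-bound protease that cleaves C4 and C2, was at 231, 216 and 204 CPM in EV libraries 1 to 3 and 57.8, 41.7 and 46.2 CPM in Sox4 (-2.16 ± 0.15 SE, adjusted p = 2.99e-06). Masp1, the protease that activates Masp2, had a log2 fold change of -0.74 with an SE of 0.12 (adjusted p = 0.00100). The ratio of Masp2 to Masp1 counts went from 1.10, 0.963 and 0.807 in EV to 0.395, 0.288 and 0.382 in Sox4. Since 52.5% of the Masp2 exon sequence overlaps Tardbp on the opposite strand, and the strand setting of the counting was not given in the sources used here, the Masp2 value is uncertain. Tardbp itself was at 60.8 to 79.9 CPM in EV and at least 88.8 CPM in every Sox4 library.

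C3 is the point where all routes of complement meet, and it was the most abundant of the 44 genes. Its level was 13150, 15795 and 18954 CPM in EV libraries 1 to 3 and 8589, 8064 and 7509.5 CPM in Sox4. All Sox4 libraries lay below all EV libraries, a 1.98-fold drop (-0.99 ± 0.16 SE, adjusted p = 0.00134). Cfi, the protease that inactivates C3b and C4b, had a log2 fold change of -0.54 with an SE of 0.15 (adjusted p = 0.0149), and was not called with library size alone (-0.07, adjusted p = 0.703). Its call was also lost without EV library 2, EV library 3 or Sox4 library 2 (adjusted p = 0.0522, 0.0539 and 0.0604). Cfb, the protease of the alternative convertase, was at 10.2, 10.9 and 7.99 CPM in EV libraries 1 to 3 and 9.57, 11.03 and 6.64 CPM in Sox4. The groups overlapped and the change of -0.09 with an SE of 0.25 (adjusted p = 0.739) did not pass. In GENCODE M21, 73.0% of the Cfb and 41.6% of the C2 exon sequence is shared with other models, mainly Gm20547, a model on the same strand that spans both genes. Gm20547 was listed at 0 counts in all 6 libraries, and how reads in shared exons were assigned is not given in the sources used here, so the low Cfb and C2 levels may hold only the unshared part of each gene. Cfp, properdin, which stabilises that convertase and is known to come mainly from leukocytes, was at 1.54, 2.66 and 2.40 CPM in EV libraries 1 to 3 and 1.80, 2.55 and 4.51 CPM in Sox4, with overlap (0.42 ± 0.43 SE, adjusted p = 0.385). Of 8 neutrophil and monocyte markers none had enough counts to be tested, and Ly6g and Camp were at 0 in all libraries. The summed level of the 8 markers was 0.308, 0.607 and 0.944 CPM in EV libraries 1 to 3 and 1.75, 2.96 and 1.17 CPM in Sox4. The part of leukocyte transcripts in the Cfp level was not tested.

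The terminal components form the membrane attack complex. All 6 genes were lower, each at least 2-fold (median -1.99). Hc, which encodes C5 and was the most abundant of the group, was at 1498, 1605 and 2264 CPM in EV libraries 1 to 3 and 791, 909.7 and 742 CPM in Sox4. Neither this gene nor C9, the pore-forming subunit, had overlapping groups. The log2 fold change of Hc was -1.14 with an SE of 0.20 (adjusted p = 0.000664). C9 was at 720.1, 617 and 869 CPM in EV libraries 1 to 3 and 333, 371 and 314 CPM in Sox4 (-1.12 ± 0.16 SE, adjusted p = 0.000272). C6 was at 338, 294 and 424 CPM in EV libraries 1 to 3 and 128, 145 and 29.3 CPM in Sox4. Although the groups did not overlap, Sox4 library 3 stood far below the others, and the SE was large (-1.80 ± 0.76 SE, adjusted p = 0.0426). The C6 call was lost with library size alone (adjusted p = 0.0859), with limma-voom (adjusted p = 0.0513), with no filter (adjusted p = 0.162), and without any one of the EV libraries or Sox4 library 1 (adjusted p from 0.0667 to 0.131). With the replicate number as a block the adjusted p was 0.1695.

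C8 is built from an alpha, a beta and a gamma chain, encoded by C8a, C8b and C8g. C8a was at 967, 1119.8 and 1366 CPM in EV libraries 1 to 3 and 311, 288 and 166 CPM in Sox4. C8b was at 536, 536 and 641 CPM in EV libraries 1 to 3 and 141, 112 and 93.3 CPM in Sox4. C8g, a lipocalin encoded on another chromosome, was at 349, 339 and 302 CPM in EV libraries 1 to 3 and 47.7, 42.2 and 48.0 CPM in Sox4. None of these had overlapping groups, and C8g fell by the largest factor of the 44 genes, 7.17-fold. The log2 fold changes were -2.18 with an SE of 0.32 (adjusted p = 8.19e-05) for C8a, -2.31 with an SE of 0.19 (adjusted p = 6.61e-06) for C8b and -2.84 with an SE of 0.09 (adjusted p = 3.94e-07) for C8g. C8a had 1.81, 2.09 and 2.13 times the counts of C8b in EV and 2.20, 2.58 and 1.77 times in Sox4, so this ratio overlapped. C8g counts were 0.652, 0.632 and 0.470 of C8b counts in EV and 0.338, 0.377 and 0.515 in Sox4, which also overlapped.

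The C8a and C8b upstream sequences are given because the ratio of these neighbours in RefSeq GRCm38.p6 overlapped between groups while both fell. C8a is at chr4:104876399-104876648 on the minus strand and C8b at chr4:104766067-104766316 on the plus strand, with capitals as above.
C8a: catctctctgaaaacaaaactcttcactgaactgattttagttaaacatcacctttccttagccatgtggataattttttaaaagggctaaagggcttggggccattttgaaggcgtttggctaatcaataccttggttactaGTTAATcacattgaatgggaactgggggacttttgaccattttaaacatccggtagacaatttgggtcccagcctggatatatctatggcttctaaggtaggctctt
C8b: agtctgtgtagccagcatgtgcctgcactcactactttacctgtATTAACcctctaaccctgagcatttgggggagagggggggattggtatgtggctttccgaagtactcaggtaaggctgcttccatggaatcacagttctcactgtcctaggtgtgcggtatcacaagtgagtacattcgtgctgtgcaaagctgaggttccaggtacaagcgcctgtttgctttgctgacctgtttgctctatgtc
C8a held GTTAAT with its nearest match 107 bases before the start and C8b held ATTAAC 206 bases before it.

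Over the 35 members with a listed upstream sequence, 7 motifs were searched on both strands. The HNF1 core GTTAAT occurred in 11 of them, 31.4%, against 7.49% of 27025 genes (C1ra, C4bp, C8a, C8b, Cfp, F13b, Fga, Fgb, Hc, Proz and Vtn). The members with it had a median log2 fold change of -1.11 and those without it -1.05, and Vtn and Cfp, which did not pass, carried it too. The SOX core ACAAAG occurred in 8 members, 22.9%, against 18.6% of all genes (C8g, C9, Cfp, F11, F5, F9, Kng2 and Pros1), with a median of -0.49 and -1.12 for those without it. A gene was counted if any of its listed upstream windows held the motif. C8g held the SOX core in its window at chr2:25501720-25501969 but not in that at chr2:25500507-25500756. CAAAG, a core of the HNF4A site that lies within ACAAAG and CAAAGTCCA, occurred in 60.0% of members and 52.2% of all genes. The longer HNF4A site CAAAGTCCA and the CEBP site TTGCGCAA occurred in none of the 35, and in 0.451% and 0.185% of all genes. CCAAT occurred in 7 of the 35 members and 37.5% of all genes, and TATAAA in 3 members and 14.3% of all genes. A match of letters is a description of the sequence and not a binding site. Proc, Cfb, Plg, Cfi, Kng1, C2, C4b, Masp1 and Fgl1 had no listed sequence.

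The 2 membrane complement regulators among the 44 are not plasma proteins but protect host cells, and both were higher in Sox4. Cd55, decay-accelerating factor, which breaks up C3 convertases, was at 0.385, 0.532 and 0.654 CPM in EV libraries 1 to 3 and 1.20, 2.61 and 2.53 CPM in Sox4. These low values did not overlap, at 24.3 counts per library on average, and the change was 3.98-fold (1.99 ± 0.38 SE, adjusted p = 0.00455). Cd59a, which blocks assembly of the membrane attack complex and was the more abundant of the pair, was at 66.2, 71.5 and 69.6 CPM in EV libraries 1 to 3 and 80.5, 89.6 and 89.2 CPM in Sox4. All Sox4 libraries were above all EV libraries by a small factor (0.32 ± 0.06 SE, adjusted p = 0.0226). The Cd59a call was lost without any one library other than Sox4 library 1 (adjusted p from 0.0580 to 0.0936) and with limma on the deposited normalized values (adjusted p = 0.0528). Membrane regulators outside the 44 did not share this rise. The paralog Cd59b was lower, from 4.14 to 5.01 CPM in EV, against 0.811 to 1.40 CPM in Sox4. Cr1l had a log2 fold change of -0.25 (adjusted p = 0.123), or 0.22 with library size alone (adjusted p = 0.149). Cd46 had -1.21 at about 1 CPM or less (adjusted p = 0.0764), so neither Cr1l nor Cd46 passed.

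Markers of other cells were at low levels in these libraries. Of 7 hepatocyte markers 6 were in the table, and 3 of these were lower (Alb, Apoa1 and Serpina1a) and none higher. Apoa1 was the one still called with library size alone, while Alb (adjusted p = 0.627) and Serpina1a (adjusted p = 0.651) were not. Their sum ran from 117180 to 139550 CPM in EV against 84116 to 98235 CPM in Sox4, while their share of raw counts overlapped (10.1% to 11.7% in EV and 9.89% to 11.5% in Sox4). Of 8 Kupffer cell markers 7 were tested and 2 were higher (Cd5l and Marco; 6 with library size alone), beside 29.0% and 51.0% of all genes, and all 7 of the tested values lay above 0, with sums of 10.6 to 25.2 CPM in EV against 23.7 to 58.7 CPM in Sox4. Of 8 stellate cell markers 4 were tested and 3 were higher (Reln, Rgs5 and Col3a1), and 4 with library size alone. The stellate sums were 8.63 to 46.3 CPM in EV against 84.2 to 142 CPM in Sox4. Most of each sum was Reln, at 7.09, 22.6 and 37.5 CPM in EV libraries 1 to 3 and 126, 117 and 50.8 CPM in Sox4. Among the Sox4 libraries Reln was lowest in library 3, while Dcn, Rgs5 and Col3a1 were lowest in library 1. The groups overlapped for Dcn, so the stellate sums mainly describe Reln. Of 7 cholangiocyte markers 4 were tested and 2 were higher (Epcam and Spp1; 3 with library size alone), with sums of 27.5 to 43.7 CPM in EV against 71.5 to 84.7 CPM in Sox4, and the defining Krt19 and Krt7 were at 0 in EV and at most 0.451 CPM in Sox4. Of 6 platelet and megakaryocyte markers 1 was tested and did not pass, and Ppbp, Gp9 and Gp1bb were at 0 in all libraries. The part of other cells in the lower member levels was not tested.

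Genes that work with the 44, and acute phase proteins, were read from 5 further lists of 66 genes, of which 50 were tested. Of these, 25 were lower and 10 higher, with a median log2 fold change of -0.63, beside 26.0% and 29.0% of all genes. Acute phase proteins were 15 of the 50 tested and 11 of the 25 lower. The medians of the lists ran from -1.22 for the vitamin K cycle and factor secretion to 3.02 for plasminogen activation, so the pooled median describes no single list. The counts with library size alone were 19 lower (12.8% of all genes) and 12 higher (51.0% of all genes), with a median of -0.16. All 6 genes of the vitamin K cycle and factor secretion were lower, and 4 of them with library size alone. Ggcx, the carboxylase that activates the vitamin K-dependent factors, was at 102, 98.5 and 93.8 CPM in EV libraries 1 to 3 and 28.8, 30.5 and 32.1 CPM in Sox4 (-1.69 ± 0.06 SE, adjusted p = 2.02e-06). Vkorc1, which recycles vitamin K, fell by 1.18 on the log2 scale at a few CPM, and was not called with library size alone (adjusted p = 0.0556). Lman1, the cargo receptor that with Mcfd2 exports factors V and VIII, was at 367, 365 and 392 CPM in EV libraries 1 to 3 and 141, 138 and 147 CPM in Sox4 (-1.40 ± 0.04 SE, adjusted p = 9.63e-06). Furin, which removes propeptides from clotting factors, had a log2 fold change of -1.25 with an SE of 0.07 (adjusted p = 2.37e-05).

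Among 8 tested coagulation receptors, inhibitors and cofactors, 1 was lower and 3 were higher. Hgfac, a protease related to factor XII that activates hepatocyte growth factor, was at 285, 337 and 283 CPM in EV libraries 1 to 3 and 53.9, 37.4 and 36.8 CPM in Sox4 (-2.82 ± 0.20 SE, adjusted p = 2.20e-06). F2r, the thrombin receptor PAR1, was at 46.4, 35.0 and 38.9 CPM in EV libraries 1 to 3 and 96.5, 126 and 101 CPM in Sox4, higher in every Sox4 library (1.43 ± 0.17 SE, adjusted p = 3.51e-05). Also higher were Habp2 (0.51) and F2rl1, which was at 0 in EV and at 21, 51 and 39 counts in Sox4. Of 4 tested genes of the plasminogen activation list 3 rose, all from near 0. Plat, tissue plasminogen activator, had 0 counts in EV and 11, 33 and 66 in Sox4, and Plaur, the urokinase receptor, had at most 2 in EV and 14 to 17 in Sox4. The last was Fgl2, a fibrinogen-like prothrombinase and not a plasminogen activation gene, with at most 5 counts in EV and 13 to 20 in Sox4.

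Of 17 tested complement genes outside the members, 7 were lower and 2 higher (median -0.25), beside 26.0% and 29.0% of all genes. The counts with library size alone were 5 lower and 4 higher, and the median turned to 0.22. C1s1, the partner protease of C1ra, was at 512, 574 and 593 CPM in EV libraries 1 to 3 and 223, 217 and 198 CPM in Sox4 (-1.40 ± 0.08 SE, adjusted p = 1.84e-05). C1rl, a C1r-like protease, was at 211, 185 and 189.8 CPM in EV libraries 1 to 3 and 53.9, 34.3 and 39.8 CPM in Sox4 (-2.19 ± 0.20 SE, adjusted p = 7.09e-06). C4a had a log2 fold change of -2.80 with an SE of 0.84 (adjusted p = 0.0102), which was not called without a filter (adjusted p = 0.0751). C1qb, a subunit of C1q made by macrophages, was higher at a few CPM (1.27 ± 0.36 SE, adjusted p = 0.0106), as was C1qc (1.04), while the Kupffer cell sums above moved in the same direction, and their part in this was not tested.

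Acute phase proteins are plasma proteins that hepatocytes make more of in inflammation, as they do fibrinogen and C3. Of 15 tested, 11 were lower and 2 were higher, with a median of -1.06. The counts with library size alone were 9 lower and 2 higher, with a median of -0.59. Saa1 (-3.498), Saa2 (-3.58), Orm1 (-2.61), Crp (-2.33) and Hp (-2.09) fell the most on the log2 scale. Orm2 (-1.16), Hpx (-1.06) and Apcs (-1.02) also fell at least 2-fold. Hp, haptoglobin, was at 2869, 3036 and 2993 CPM in EV libraries 1 to 3 and 870.3, 709 and 516 CPM in Sox4 with no overlap (-2.09 ± 0.22 SE, adjusted p = 2.31e-05). Hamp, hepcidin, was at 103, 330.1 and 299 CPM in EV libraries 1 to 3 and 506, 495 and 636 CPM in Sox4, with EV library 1 far below the other EV libraries (1.16 ± 0.55 SE, adjusted p = 0.0467). The Hamp call was lost without EV library 3 or any one Sox4 library (adjusted p from 0.0784 to 0.155), with limma-voom (adjusted p = 0.0552), with limma on the deposited normalized values (adjusted p = 0.0526) and with no filter (adjusted p = 0.191). Itih3 was the other that rose (0.58).

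**Figure D5:**
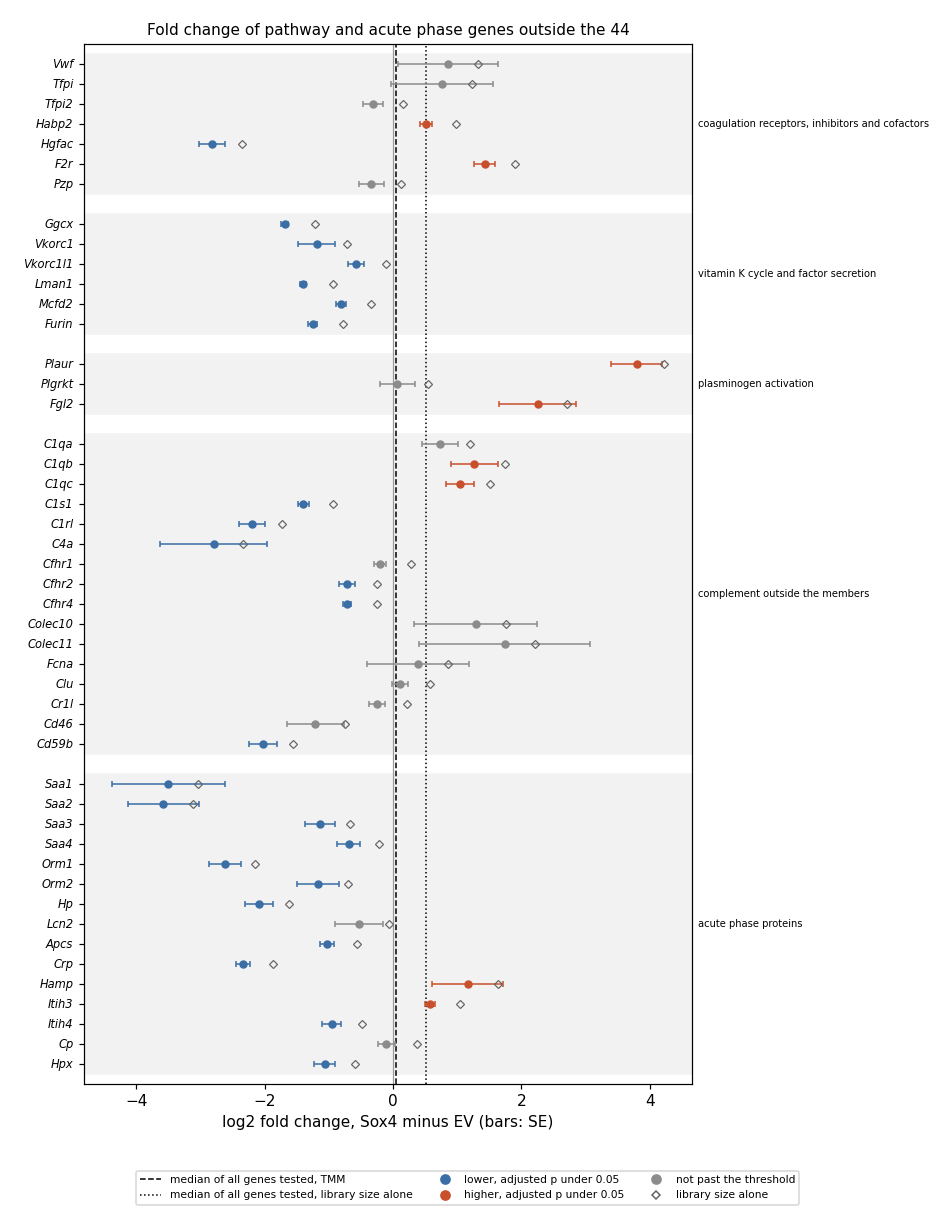
Log2 fold change of Sox4 minus EV with its SE for tested genes of the 5 further lists (signs and lines as in the plot of the 44 genes; F2rl1 and Plat, at 0 in all EV libraries, are left out). All 6 genes of the vitamin K cycle and factor secretion lie left of 0 under TMM, and the acute phase genes range from -3.58 for Saa2 to 1.16 for Hamp.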

How the data were processed

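RNA was extracted from hepatocytes of 3 EV and 3 Sox4 samples, and 1 library was sequenced per sample. Per the labels, the authors aligned reads with STAR 2.7.10b to GRCm39 and counted them per gene with featureCounts 2.0.1, which gave the deposited raw counts. The annotation and the strand setting are not given in the sources used here. The authors also deposited a table of normalized signal values, counts divided by DESeq2 median-of-ratios size factors, whose header sits 1 column left of its values, so its columns were matched by number and used only in an alternative.

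The tests used edgeR 4.0.16 under R 4.3.3, on the raw counts. Genes passed filterByExpr (minimum count 10, minimum total 15), were scaled by TMM and tested with the quasi-likelihood test (robust), with Benjamini-Hochberg adjustment over 12691 genes. SE values come from log2 CPM with a prior count of 2. Alternatives were library size alone, RLE factors, DESeq2 1.42.0, limma-voom and limma 3.58.1 on log2 of the normalized values with a pseudocount of 1, no filter, a mean count of at least 50, a replicate block, and each library left out in turn. The edgeR test was checked on simulated data in which few genes changed, equally often up and down. That check does not bear on the choice of scaling.

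The members and the gene lists were chosen with earlier results of these data known, and the 13 pairs were chosen after their values had been seen. Library values are given for members past 0.05 with an absolute log2 fold change of at least 1 and for the most abundant member of each group, and further members where a call depends on a library. Pathway genes are named if they also had a mean count of at least 50, and others where a count is small. The marker Tf was not found by symbol, and 1 further pathway gene and 1 marker are counted in their lists but not reported here. Replicates differed by more than counting noise (chi-square per degree of freedom from 18.0 to 71.3). P-values weigh the difference between groups against the spread among these 6 libraries, and the labels do not say which animal each came from. Shared exon sequence was taken as 50-base words in GENCODE M21, and upstream sequence as 250 bases in RefSeq GRCm38.p6.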

Additional observations from a re-analysis of the deposited data

How the results depend on the processing

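Of the 34 lower members, 25 were called under all 14 alternatives, as was Cd55 under the 13 that tested it, and 9 lower and 2 higher members were not. With library size alone 7 members were higher and the median log2 fold change was -0.56. Under the same setting the direction turned for F9 (0.032), F10 (0.11), Pros1 (0.38), Vtn (0.37) and Cfb (0.38), because every value moves by the shift between scalings. With limma on the deposited normalized values 1 member was higher, beside 27.4% of all genes. Leaving out 1 library gave 1 to 4 higher members, 30 to 33 lower members and a median of -1.14 to -0.98. In these fits 23.8% to 28.7% of all genes were higher and 21.8% to 26.9% lower. The 1 higher member was reached without EV library 1, EV library 2 or Sox4 library 2. Leaving out a library also turned Kng2 (-0.059 without EV library 1, up to 0.14), Cfb (0.092 without Sox4 library 3, down to -0.25) and Cfp (-0.011 without Sox4 library 3, up to 0.68), none of them called. With a mean count of at least 50, 5 in place of 10 pathway genes outside the members were higher, since fewer genes were tested. The members' share of counts was 1.13 to 1.64 percentage points lower when 1 library was left out, and 1.78 lower without the 10 most counted other genes.

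With the replicate block 33 members were lower (27.6% of all genes) and 4 higher (30.4% of all genes). The C6 call was lost (adjusted p = 0.1695) and the F12 call gained (adjusted p = 0.0362). For libraries with the same number, the deviations from the group means correlated at 0.27, -0.09 and 0.13. With 3 libraries per group these values cannot decide whether libraries of the same number were handled together. With 3 libraries per group, changes in genes of a few CPM, such as F3, F8 and Cfp, are poorly resolved.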
